A study of Mus musculus with 2 samples.

Results

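The circadian clock genes described here are Clock, Npas2, Per1, Per2, Per3, Cry1, Cry2, Nr1d1, Nr1d2 and Dbp, chosen by gene symbol. All 10 were present among the 27179 genes listed for both libraries, and all 10 were among the 15212 that averaged 10 or more normalised counts, which were examined. The RNA came from brown adipose tissue of the interscapular depot (iBAT), a fat that makes heat and lies between the shoulder blades. Both groups were untreated mice on the Bl6N (C57BL/6N) background, aged 20 days and described as male. One group was wild-type. The other was Ucp1 KO, which carries a deletion in both copies of the gene for uncoupling protein 1, the mitochondrial protein through which brown fat turns respiration into heat. Each genotype had 1 library, made by pooling tissue of 3 animals, so no spread between animals can be given and no test between genotypes was possible. The housing described by the study had a light/dark cycle, and the hour at which each pool was dissected is not given in the sources used here.

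The molecular clock is a delayed feedback loop of transcription factors that runs in nearly every mammalian cell. CLOCK or its relative NPAS2 pairs with BMAL1 and activates genes through E-boxes, among them the Per, Cry, Nr1d1, Nr1d2 and Dbp genes. PER and CRY proteins then repress CLOCK and BMAL1, while the nuclear receptors NR1D1 and NR1D2 (REV-ERB alpha and beta) repress Bmal1 at RORE sites, which ROR receptors activate. DBP, TEF and HLF are PAR bZIP activators that bind D-boxes, where NFIL3 opposes them. In peripheral tissues of mice Nr1d1 is known to peak by day, Dbp and Per3 later, Per1 and Per2 around the onset of darkness, Cry1 later in the night, and Bmal1, Npas2 and Clock towards its end. In brown fat NR1D1 is also known as a repressor of Ucp1. A single clock in step with itself therefore has its Bmal1-phase genes and its E-box and D-box genes in opposite states at most hours of the day, and the comparison of the pools was read with that order in mind.

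The start regions of the genes were searched for the letters of these control sites, through which the proteins of the loop act. RefSeq start windows (250 bases before to 50 after a start, table built on GRCm38.p6) were found for 9 of the 10 clock genes, in 12 windows, and Per2 had no entry. The letters searched on both strands were CACGTG for the E-box, TTANGTAA for the D-box, A, any 2 bases and then TAGGTCA or TGGGTCA for the RORE and TGACGTCA for the CRE, the cAMP response element. Of all 32851 windows, 7.15% held the E-box, 2.32% the D-box, 1.6% the RORE and 1.79% the CRE. Of the clock genes, Per1 and Cry1 held an E-box and Per3 held 2 D-boxes, while no RORE or CRE was found in these windows. Among 10 of 12 other genes of the loop with a window, Tef, Bhlhe41, Ciart and Cipc held an E-box, Rorb a D-box, Bmal1 a RORE and Hlf a CRE. The sites of 3 clock genes, and for comparison those of Bmal1 and Ciart, which are on opposite sides of the loop, are printed below, 5′ to 3′ on the strand of the gene with the searched letters in capitals, and their positions are those of the same sequence in GRCm39.
Per1 E-box: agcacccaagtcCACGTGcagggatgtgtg
Per3 D-boxes: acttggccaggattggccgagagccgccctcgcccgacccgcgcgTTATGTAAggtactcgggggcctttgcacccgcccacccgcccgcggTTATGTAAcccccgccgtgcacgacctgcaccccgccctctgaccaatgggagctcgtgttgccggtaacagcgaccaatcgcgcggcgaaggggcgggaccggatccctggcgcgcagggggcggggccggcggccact
Cry1 E-box: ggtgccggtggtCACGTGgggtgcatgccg
Ciart E-boxes: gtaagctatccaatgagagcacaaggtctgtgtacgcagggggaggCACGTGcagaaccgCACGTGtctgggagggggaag
Bmal1 RORE: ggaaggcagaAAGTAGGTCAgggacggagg

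The Per1 sequence is chr11:68989597-68989626 on the plus strand. Its E-box starts 166 bases before that RefSeq start, and GENCODE mouse release 39 places it in the untranslated first part of the canonical Per1 transcript. The Per3 stretch is chr4:151129141-151129372 on the minus strand, directly upstream of the first annotated Per3 exon, and its D-boxes start at -205 and -158 from the RefSeq start. The Cry1 site is chr10:85020961-85020990 on the minus strand, with the E-box at -60, upstream of the canonical transcript and within an untranslated exon of another annotated one. The Ciart stretch is chr3:95789564-95789644 on the minus strand, outside annotated exons, with E-boxes at -58 and -44, and a further E-box lay at -116. The Bmal1 site is chr7:112806735-112806764 on the plus strand, in the untranslated first part of its canonical transcript, with the RORE starting at 28 bases after the RefSeq start. A match of letters describes these windows and says nothing of binding, and more distant sites were not searched.

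The libraries had 52950913 (wild-type) and 53216727 (Ucp1-KO) counts. Ucp1, the targeted gene, had 366473 wild-type and 37853 Ucp1-KO counts, and after scaling 12.7% of the wild-type level remained in the knockout pool. Which part of the gene is deleted is not given in the sources used here, so whether those reads lie in it was not tested. The pools also differed in other ways. The 4 Y-linked genes examined together had 0 and 5305 counts, and Xist, which is expressed in females, had 32380 and 16478. By these genes the wild-type pool matched tissue of females only and the Ucp1-KO pool a mix of both sexes. The sex-linked transcripts thus differed between the pools and in neither case matched tissue of males only. Mitochondrially encoded genes took 22.4% and 36.7% of the counts. All 19 skeletal muscle markers were lower by 2-fold or more in Ucp1-KO, as were 9.55% of all genes examined. They went from 0.669% of the wild-type to 0.0806% of the Ucp1-KO counts. Genotype, sex make-up, muscle content and dissection time cannot be told apart with 1 pool per genotype. In bulk tissue, fewer cells of a type and less RNA per cell cannot be told apart either.

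Across the clock genes, the Ucp1-KO library had less of the period genes, Cry2, the REV-ERBs and Dbp, and more of Clock and Cry1. The difference is given as the log2 ratio, Ucp1-KO over wild-type, of counts divided by library size factors, with a 95% counting interval on read pairs. It ran from -2.39 for Dbp to 0.84 for Cry1. Of the 10 genes, 7 were lower and 2 were higher beyond counting error, meaning that the interval left out 0, and 1 was within it. At this depth counting error is small for most genes, and of all genes examined 30.5% were lower and 31.5% higher by the same measure (62.0% in either direction). At the size rule of a 2-fold difference, 3 of the clock genes were lower and 0 higher, beside 9.55% and 7.42% of all genes (17.0% in either direction). The 3 genes all averaged over 100 normalised counts, and of the 11768 genes at or above that level 5.2% were lower by as much. The median log2 ratio of the 10 was -0.64 and that of all genes examined was -0.0016. Clock gene transcripts together took 0.0788% of wild-type counts and 0.0422% of Ucp1-KO counts.

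**Figure D1:**
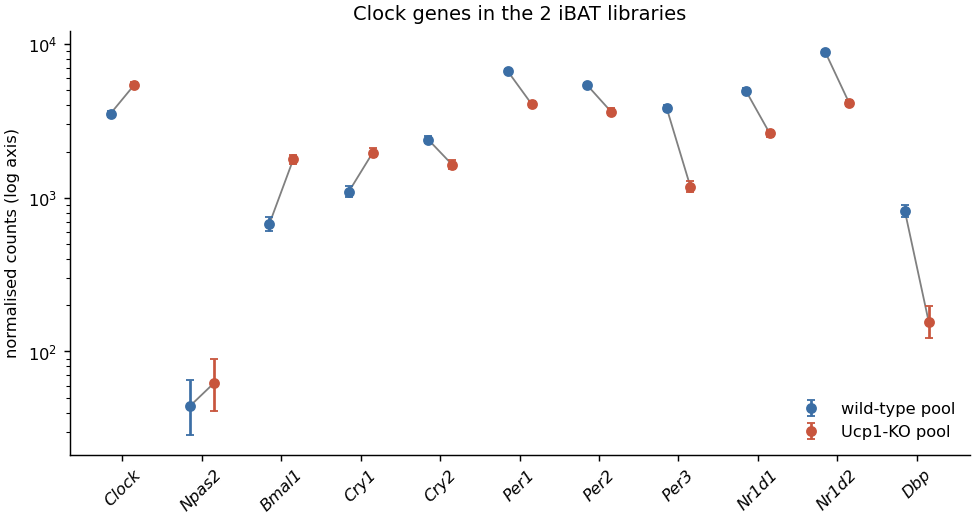
Normalised counts (log axis) of the 10 clock genes and of Bmal1 in the wild-type pool and the Ucp1-KO pool, 1 library each; bars are exact 95% Poisson intervals on read pairs and cover counting error only. Dbp (820.2 against 156) and Per3 (3856 against 1182) are farthest below wild-type, whereas Clock, Cry1 and Bmal1 are above it and the intervals of Npas2 overlap.

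Among the activators, Clock (chromosome 5, 76342860 to 76452846, minus strand), which encodes the DNA-binding partner of BMAL1, was counted 3914 times in wild-type (3742 to 4091, the exact 95% Poisson interval). In the Ucp1-KO pool it was counted 4901 times (4709 to 5099). After scaling these were 3528 and 5437 normalised counts, a log2 ratio of 0.62 (0.54 to 0.71). Clock was therefore higher in the Ucp1-KO pool beyond counting error but short of 2-fold. It shares 2047 exon bases with Tmem165 on the opposite strand, which had 1853 and 1462 counts and a log2 ratio of -0.04. Npas2 (chromosome 1, 39232705 to 39402323, plus strand), the close relative that can replace CLOCK, had 49 wild-type counts (31.6 to 72.6) and 56 Ucp1-KO counts (37.2 to 80.9). Its log2 ratio of 0.49 had an interval from -0.34 to 1.34, so a difference was not detectable at this depth. Npas2 had by far the fewest counts of the clock genes in both pools, also per length.

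All 3 period genes, whose proteins form the core of the repressor complex, were lower in the Ucp1-KO library. Per1 (chromosome 11, 68986035 to 69002300, plus strand) had 7396 wild-type counts (7160 to 7638) and 3677 Ucp1-KO counts (3511 to 3849). Its 6666 and 4079 normalised counts gave a log2 ratio of -0.71 (-0.79 to -0.63). Per2 (chromosome 1, 91343700 to 91387069, minus strand) had 6002 counts (5789 to 6221) and 3281 counts (3124 to 3444), a log2 ratio of -0.57 (-0.66 to -0.48). Per1 and Per2, which are also known to respond quickly to cAMP and to glucocorticoids, thus differed by similar amounts, each under 2-fold. Per3 (chromosome 4, 151081373 to 151129140, minus strand), whose promoter stretch with 2 D-boxes is printed above, had 4278 wild-type counts (4099 to 4463) and 1065 Ucp1-KO counts (976 to 1159). Its Ucp1-KO level was 30.7% of wild-type (27.8% to 33.7%), a log2 ratio of -1.71 (-1.85 to -1.57), which 647 of the 15212 genes examined went below. The Per3 interval did not overlap those of Per1 and Per2. Per3 shares 154 exon bases with Uts2 on the opposite strand, which had 41 and 4 counts.

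The cryptochromes, the partners of the PER proteins and the main repressors of CLOCK and BMAL1, went in opposite directions. Cry1 (chromosome 10, 84967560 to 85021252, minus strand) had 1217 wild-type counts (1122 to 1318) and 1768 Ucp1-KO counts (1653 to 1889), or 1097 and 1961 normalised counts. That is a log2 ratio of 0.84 (0.69 to 0.99), the highest of the 10 genes. Cry2 (chromosome 2, 92233894 to 92264474, minus strand) had 2651 counts (2510 to 2798) and 1482 counts (1377 to 1593), a log2 ratio of -0.54 (-0.67 to -0.41). Cry1 is known to be under RORE as well as E-box control and to peak later than the Per genes. The intervals of both cryptochromes lay on opposite sides of 0.

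The REV-ERB pair, which links the loop to Bmal1 as its repressors, was lower in the Ucp1-KO library. Nr1d1 (chromosome 11, 98658752 to 98666188, minus strand) had 5495 wild-type counts (5291 to 5704) and 2361 Ucp1-KO counts (2228 to 2500). Its level was 52.9% of wild-type (49.4% to 56.6%), a log2 ratio of -0.92 (-1.02 to -0.82), with 2-fold inside the interval. Nr1d1 overlaps Thra, the thyroid hormone receptor alpha gene, on the opposite strand over 1694 exon bases, and Thra had 2207 and 1487 counts (log2 ratio -0.27). Nr1d2 (chromosome 14, 4230545 to 4266624, plus strand) had 9798 counts (9526 to 10076) and 3721 counts (3554 to 3894). It was the most counted of the clock genes in wild-type, and at 46.7% of that level (44.3% to 49.3%; log2 ratio -1.10, -1.17 to -1.02) its whole interval lay past 2-fold.

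Dbp (chromosome 7, 45354512 to 45359627, plus strand), a direct CLOCK and BMAL1 target and itself an activator at D-boxes, differed most. It had 910 wild-type counts (828 to 998) and 141 Ucp1-KO counts (110 to 178), which are 820.2 and 156 normalised counts. The Ucp1-KO level was 19.1% of wild-type (14.6% to 24.6%), a log2 ratio of -2.39 (-2.77 to -2.03), and 312 of the genes examined were lower still. Dbp shares 539 exon bases with Sphk2 on the opposite strand, which had 1423 and 784 counts and a log2 ratio of -0.56. The libraries were directional, but the strand setting of the counting is not given in the sources used here, so reads in the bases that Dbp, Clock, Nr1d1 and Per3 share with these coding genes cannot be assigned with certainty. The same holds for exon bases shared with noncoding genes on the opposite strand, among them 296 of Cry2, 334 of Per1, 449 of Per3 and 697 of Npas2.

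**Figure D2:**
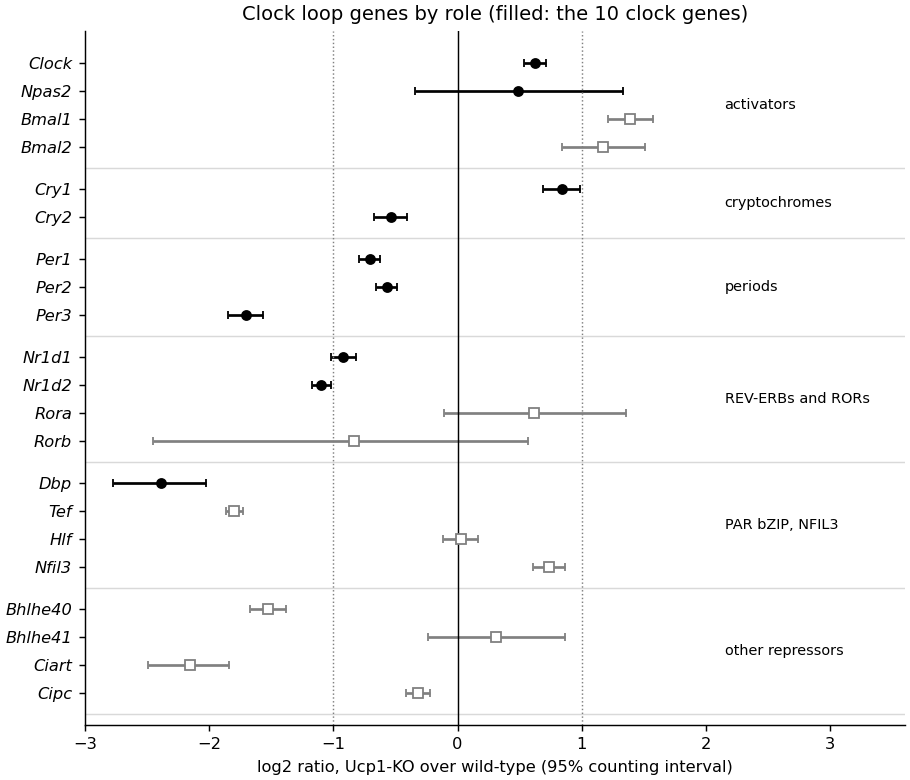
Log2 ratios, Ucp1-KO over wild-type, with 95% counting intervals for the clock genes (filled) and 11 other genes of the loop (open), grouped by role, with dotted lines at 2-fold. Bmal1 (1.39) and Dbp (-2.39) mark the spread between the sides of the loop.

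The other genes of the loop were read from a list of 12, and they too lay on both sides of 0. Of the 12, 2 were at least 2-fold higher in the Ucp1-KO library (7.42% of all genes) and 3 lower to that extent (9.55%). Beyond counting error 3 were higher (31.5% of all genes) and 4 lower (30.5%), with 5 within it. The median log2 ratio of the 12 was -0.02. Bmal1, the obligate partner of CLOCK and NPAS2 and the gene that the REV-ERBs repress, had 751 wild-type and 1600 Ucp1-KO counts. It was 2.62-fold higher (2.32 to 2.97), a log2 ratio of 1.39. Its relative Bmal2 had 234 and 429 counts and a log2 ratio of 1.17 (0.84 to 1.51). Nfil3, the D-box repressor that is itself repressed by the REV-ERBs, had 1736 and 2353 counts and a log2 ratio of 0.74 (0.61 to 0.87). These 3 genes were higher in the pool in which Nr1d1 and Nr1d2 were lower, and a link between the 2 was not tested.

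Among the PAR bZIP relatives of Dbp, Tef had 19915 and 4658 counts and a log2 ratio of -1.80 (-1.86 to -1.73). Hlf had 1802 and 1491 counts and a log2 ratio of 0.03 (-0.12 to 0.17). Tef was therefore lower along with Dbp, and Hlf was within counting error. Of the E-box-driven repressors, Ciart, which encodes a repressor of CLOCK and BMAL1 and has 3 E-boxes in its window, had 1040 and 189 counts. Its log2 ratio of -2.16 (-2.49 to -1.84) came next to that of Dbp. Bhlhe40, whose protein competes for E-boxes, had 3577 and 1008 counts and a log2 ratio of -1.53 (-1.67 to -1.38). Its relative Bhlhe41 had only 115 and 116 counts and a log2 ratio of 0.31 (-0.24 to 0.86). Cipc, another inhibitor of CLOCK, had 4401 and 2864 counts and a log2 ratio of -0.32 (-0.42 to -0.22).

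Rora and Rorb, which encode receptors that activate Bmal1 through the RORE, had few counts and did not differ beyond counting error. Rora had 61 and 76 counts and a log2 ratio of 0.61 (-0.11 to 1.35). Rorb had 29 and 13 counts and a log2 ratio of -0.84 (-2.45 to 0.57). At these counts a difference of 2-fold could not be told from none in either gene.

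**Figure D3:**
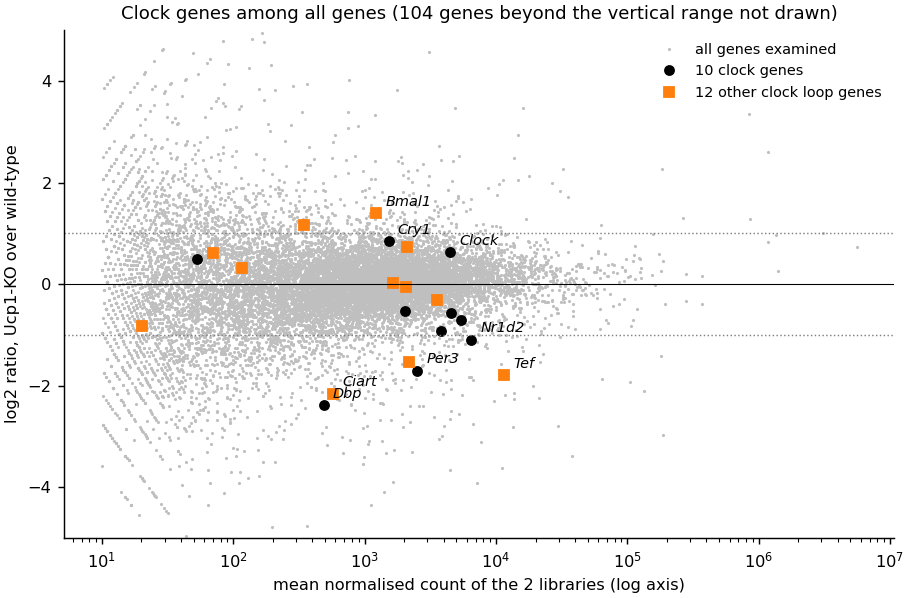
Log2 ratio, Ucp1-KO over wild-type, against the mean normalised count (log axis) for the genes examined (grey), with the 10 clock genes and the 12 other clock loop genes marked; 104 genes beyond 5 in log2 ratio are not drawn. Dbp (-2.39), Ciart (-2.16), Tef (-1.80) and Per3 (-1.71) lie below the dotted line for 2-fold and Bmal1 (1.39) above that on the other side.

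To ask whether the pools looked as if sampled at different clock phases, the loop genes were put in 2 groups by their known order of expression. The groups, like the other lists, were drawn up with earlier results of these data known. Their separation is therefore a description and not an independent check. The Bmal1 group held Bmal1, Npas2, Clock, Nfil3 and Cry1. The E-box and D-box group held Nr1d1, Nr1d2, Dbp, Tef, Hlf, Per1, Per2, Per3, Ciart and Bhlhe41. Cry2 (-0.54) and Bhlhe40 (-1.53) were in neither group. All 5 genes of the Bmal1 group had log2 ratios above 0, from 0.49 for Npas2 to 1.39 for Bmal1, and 4 of them were beyond counting error, beside 31.5% of all genes. Of the 10 genes of the E-box and D-box group, 8 were below 0, all 8 beyond counting error (30.5% of all genes), and the exceptions were Hlf and Bhlhe41. The medians were 0.74 and -1.01, a difference of -1.75. Because both groups are measured in the same libraries, this difference hardly depends on how the libraries were scaled. With the clock genes alone, 9 of the 10 since Cry2 was in neither group, it was -1.63, and without Per1 and Per2 it was -2.14. Within each group the known peaks fall at different hours, so neither group is a single phase. In the Ucp1-KO pool, the transcripts known to peak near Bmal1 or later than the Per genes were thus mostly the higher ones. Those known to peak with Nr1d1, Dbp and the Per genes were mostly the lower ones. Whether the hour of dissection, the genotype or another difference between the pools goes with this pattern cannot be told apart, and with 1 time per pool neither a phase nor an amplitude can be computed.

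Ratios within a library need no scaling at all. Bmal1 was taken as the denominator, and since its log2 ratio (1.39) is above that of every clock gene, all 10 ratios to it are lower in the Ucp1-KO pool by construction, so the sizes of the changes are given and not their common sign. For each Bmal1 count, wild-type had 1.21 Dbp counts and Ucp1-KO 0.0881, a log2 change of -3.78 (-4.21 to -3.38). Per3 went from 5.70 to 0.666 counts per Bmal1 count, a log2 change of -3.10 (-3.32 to -2.87). Nr1d2 went from 13.0 to 2.33 (-2.49) and Nr1d1 from 7.32 to 1.48 (-2.31). Each change is in effect the log2 ratio of the gene less that of Bmal1 (1.39). The order of the changes therefore repeats that of the log2 ratios given above and is not a second result. Dbp and Per3 came first and the REV-ERBs next. Per1 (-2.10), Per2 (-1.96) and Cry2 (-1.93) followed with intervals that overlapped. The interval of Nr1d1 (-2.52 to -2.10) overlapped those of Nr1d2, Per1 (-2.30 to -1.90), Per2 and Cry2 as well. Clock changed by -0.77 (-0.97 to -0.57) and Cry1 by -0.55 (-0.79 to -0.31) against Bmal1. For Npas2 the change was -0.90 with an interval from -1.73 to 0.005. With Clock in place of Bmal1 as the denominator, Cry1 turned to a change of 0.21 (0.04 to 0.39), and Dbp was at -3.01 (-3.42 to -2.65) and Per3 at -2.33 (-2.50 to -2.17).

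**Figure D4:**
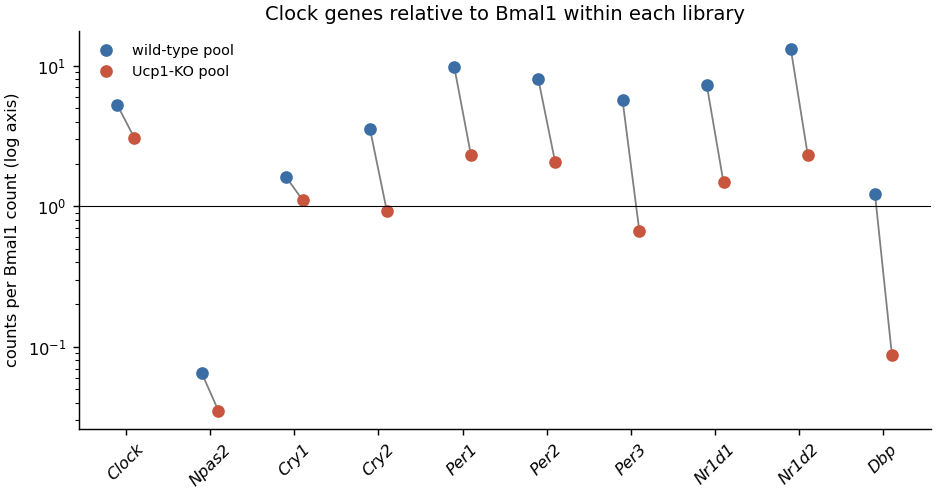
Counts of each clock gene for each Bmal1 count (log axis) in the wild-type pool and the Ucp1-KO pool; the line marks 1. Dbp crosses from 1.21 to 0.0881, and all ratios are lower in the Ucp1-KO pool by construction, because Bmal1 itself had a higher log2 ratio (1.39) than any clock gene.

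Levels of different genes were compared as normalised counts per kilobase of the canonical transcript. In the wild-type pool the order was Nr1d1 (1820), Nr1d2 (1558), Per1 (996), Per2 (927), Per3 (641), Cry2 (577), Dbp (447), Cry1 (360), Clock (356) and Npas2 (10.3). Of neighbours in this order only Cry1 and Clock had overlapping counting intervals, and those of Per1 and Per2 nearly met. In the Ucp1-KO pool Nr1d1 (963) and Nr1d2 (728) again came first by this measure. Cry1 (644), Per2 (624) and Per1 (610) followed with overlapping intervals, then Clock (549), Cry2 (397), Per3 (196), Dbp (85.2) and Npas2 (14.4). Cry1 and Clock, which stood near the bottom of the wild-type order, thus stood above Cry2, Per3 and Dbp per length in the Ucp1-KO pool. Bmal1 was at 159 per kilobase in wild-type, below all clock genes but Npas2, and at 416 in Ucp1-KO, where its interval overlapped that of Cry2. With the length of all annotated exons in place of the canonical transcript, Nr1d2 took rank 4 in the Ucp1-KO pool, behind Nr1d1, Per2 and Per1.

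Enzymes that set the lifetime of clock proteins had log2 ratios between -0.86 and 0.44. Of 7 listed, 6 were examined, and beyond counting error 2 were higher, 3 lower and 1 within it, with 0 past 2-fold, beside 31.5% higher, 30.5% lower and 17.0% past 2-fold among all genes. Csnk1d, a kinase that phosphorylates PER proteins, had a log2 ratio of 0.44, and the related Csnk1e was at -0.02, within counting error. Btrc, an F-box protein that marks phosphorylated PER for destruction, was at -0.86 with 1031 and 460 counts, and its relative Fbxw11 was at 0.15. The kinase gene Gsk3b was at -0.16, while Fbxl21 had too few counts to be examined (15 and 4).

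Genes known as clock outputs in many tissues did not move as one. Of 6, 3 were higher and 3 lower beyond counting error (62.0% of all genes in either direction), and 1 was past 2-fold (17.0% of all genes). Usp2, a deubiquitinase gene driven by the clock, had 4486 and 2428 counts and a log2 ratio of -0.59 (-0.69 to -0.48). Wee1, a cell-cycle kinase gene with E-box control, had 680 and 304 counts and a log2 ratio of -0.86 (-1.15 to -0.58). Nampt, the enzyme of NAD salvage, was at -0.22. In the other direction, Lonrf3 had 216 and 483 counts and a log2 ratio of 1.46 (1.13 to 1.80). Noct, which encodes the rhythmic phosphatase nocturnin, was at 0.80 and Tspan4 at 0.54.

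Signals that can set or shift clock genes, and markers of the cells in the depot, were measured alongside. All 7 glucocorticoid-responsive genes were lower in the Ucp1-KO library beyond counting error (30.5% of all genes were), the direction of Per1 and Per2, with a median log2 ratio of -0.85 (Tsc22d3 -1.15, Ddit4 -1.05, Klf9 -0.99). Of 11 cAMP and immediate early genes, 10 were higher (31.5% of all genes) and 1 lower (30.5%), with a median of 1.01 (Atf3 4.58, Nr4a3 3.40, Egr1 1.80). The 10 went in the opposite direction to Per1 and Per2, and the 1 lower gene went in the same direction. Of 8 temperature-responsive genes 7 were higher by the same measure (31.5% of all genes), with a median of 0.34 (Hspa1b 1.65, Rbm3 0.82), and Hsph1 was at -0.75. Of 9 feeding-responsive genes 4 were higher and 5 lower by that measure (31.5% and 30.5% of all genes), with a median of -1.14. Fasn, the fatty acid synthase gene, was at -2.11. The part of these signals in the clock gene values was not tested.

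**Figure D5:**
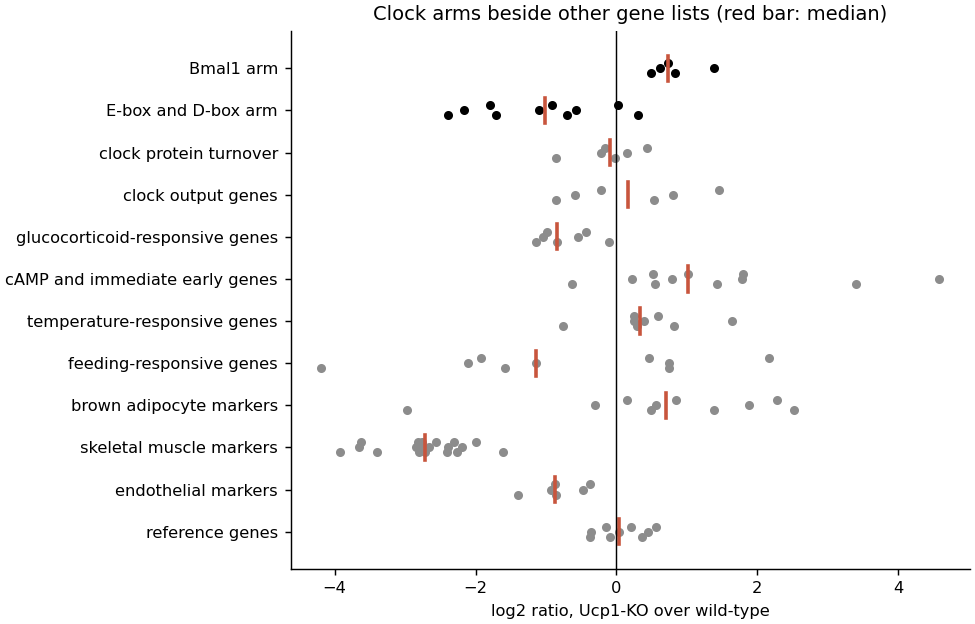
Log2 ratios, Ucp1-KO over wild-type, of single genes (points) in the Bmal1 group and the E-box and D-box group (called arms in the plot) and in 10 other lists, with the median of each list as a red bar. The median of the Bmal1 group is 0.74 and that of the E-box and D-box group is -1.01, beside -2.72 for skeletal muscle markers and 0.70 for brown adipocyte markers.

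Markers of brown adipocytes were abundant in both pools, 1.80% and 1.23% of counts, as the tissue label says. These shares include the targeted gene, as Ucp1 held 366473 of 953468 marker counts in wild-type and 37853 of 656983 in Ucp1-KO. Of 10, 8 were higher in the Ucp1-KO library and 2 lower, all beyond counting error (31.5% and 30.5% of all genes were). The median log2 ratio of the 10 was 0.70, with Elovl3 at 2.52, Dio2 at 2.28 and Ucp1 at -2.98. Muscle markers moved in the direction of the period genes, the REV-ERBs and Dbp, with a median of -2.72 over 19 genes from 354224 to 42872 summed counts (Pvalb -3.92, Casq1 -3.65, Mylpf -3.63). All 6 endothelial markers were lower beyond counting error as well, beside 30.5% of all genes (median -0.87, 90779 to 45526 summed counts; Emcn -1.39, Egfl7 -0.92, Kdr -0.87). That share of 30.5% also stands beside the lower markers of the next lists. The 4 pericyte and smooth muscle markers were lower with a median of -0.72 (Acta2 -1.02, Myh11 -0.76, Tagln -0.68; 13970 to 7246 summed counts), and of 4 Schwann cell markers 3 were lower (median -0.57; S100b -0.64; 8410 to 4009 summed counts). The 5 preadipocyte and fibroblast markers were lower by little (median -0.16; Dpt -0.47, Pdgfra -0.16, Dcn -0.16; 81562 to 61548 summed counts). Of 6 macrophage markers 3 were higher beyond counting error (31.5% of all genes) and the other 3 were within it. Their median was 0.18, the higher ones were Cd68 (1.09), Lyz2 (0.81) and Mrc1 (0.25), and the 6 had 5045 and 5697 summed counts. The 4 lymphocyte markers had 91 and 105 counts together, with Cd3d at 0 in the Ucp1-KO library, and the 3 examined were within counting error (median 0.75; Cd3e 1.56, Cd79a 0.75, Ms4a1 0.09). The 9 reference genes had a median of 0.04 and lay between -0.38 (Tbp) and 0.56 (Hprt1), with Rplp0 at 0.45. What these cell types add to the clock gene values was not tested. Summed over all 19 muscle markers the log2 ratio was -2.75, beyond that of any clock gene, and muscle and fat each have a clock of their own.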

How the data were processed

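RNA sequencing of iBAT at 20 days of age gave 1 library of 3 pooled animals for wild-type and 1 for Ucp1-KO. The deposited values are whole-number counts per gene that the authors made with featureCounts, not normalised. The submitters' processing notes name Trim Galore, HISAT2 and the build mm39, and give no version. Which annotation was counted, and how strand and reads with several matches were handled, are not given in the sources used here. Genes without a symbol (1319) held 0.156% and 0.121% of the counts and were kept.

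Counts were scaled with DESeq2 1.42.0 (R 4.3.3) by its median-of-ratios factors, which were 1.11 for wild-type and 0.901 for Ucp1-KO. The log2 ratio is log2((Ucp1-KO + 0.5)/(wild-type + 0.5)) for genes that averaged 10 or more normalised counts. Among genes with 1 to 10 counts, 70.7% and 73.4% had an even count, as when both mates of a pair are counted, so intervals use counts divided by 2. Counts have exact 95% Poisson intervals, and ratios between libraries have exact conditional binomial (Clopper-Pearson) intervals. Changes of ratios within a library have 95% conditional odds ratio intervals on read pairs rounded to whole numbers. All were computed with scipy 1.17.1 in Python 3.11.15. The totals, 52950913 and 53216727 counts, make these narrow for most genes, but they cover counting error only and not differences between animals. With 1 library per genotype, no p-value or standard deviation exists. The procedure was tested on simulated data.

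All 10 clock genes, every gene of 3 lists (other loop genes, protein turnover, outputs), Ucp1 and up to 3 genes furthest from 0 of each further list were named, except for a few genes of these lists that are not reported here. There were 19 lists. The members and lists were chosen with earlier results of these data known. The genes at the ends of the reference gene range are covered by that rule, and the genes that overlap a clock gene were named for their position. Alternatives were other scalings (edgeR 4.0.16 for TMM), pseudocounts, filters, size rules and list summaries. Positions are GRCm39 with GENCODE mouse release 39, joined by symbol. Sequences are from RefSeq windows, placed on GRCm39 by exact match.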

Additional observations from a re-analysis of the deposited data

How the results depend on the processing

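The log2 ratio of each clock gene kept its sign under all 5 alternatives that can change it (TMM, total counts, total counts without mitochondrially encoded genes, the reference genes Tbp, Hsp90ab1 and Gtf2b, and a pseudocount of 5). Scaling to total counts shifted the median of all genes examined by -0.31. The median of the clock genes then went from -0.64 to -0.95, and 5 rather than 3 clock genes were at least 2-fold lower, as Per1 (-1.02) and Nr1d1 (-1.23) passed that size. Of genes past 2-fold, 24.0% were higher with total counts and 50.4% with the reference genes, against 43.7% in the values reported. With the reference genes the median of the clock genes was -0.55. The difference between the E-box and D-box group and the Bmal1 group went from -1.75 to -1.92 with means in place of medians and to -2.14 without Per1 and Per2. The change of Cry1 against Bmal1 within a library, -0.55, turned to 0.21 against Clock, a denominator that moves all these changes by 0.77. With low counts left in, 2187 genes were at least 2-fold higher and 2844 lower, and with a minimum of 50 these were 617 and 811, beside 1128 and 1453. Under total counts they were 732 and 2320. No paired analysis was possible because there is 1 library per genotype, and no library could be left out for the same reason. Depth limits Npas2, Rora, Rorb, Bhlhe41 and Fbxl21.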
